A study of Homo sapiens with 42 samples.

Results

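The regions described here are alternative 3' splice sites that lie more than 12 nt apart and whose upstream site was in use in MM.1S cells. They were chosen from the splicing tables of 8 comparisons as the events of the type alternative 3' splice site with a target longer than 12 nt, leaving out events whose mean percent spliced in (PSI) was under 5% in the MM.1S sgEGFP libraries of the sgHNRNPL table. The rule gave 4515 of the 79530 events of all types in the tables, in 2903 genes. The PSI limit could be applied to 3021 of them, while 1494 had no value in that table and were kept. A further 3976 alternative 3' splice sites of the same length class fell under the limit, and 1558 tandem sites lay within 12 nt. Since measured PSI chose the members, the level of the MM.1S sgEGFP libraries and both comparisons against it are given as a description with no test.

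A 3' splice site is the end of an intron. It is read by U2AF, whose large subunit binds a tract of pyrimidines and whose small subunit binds the AG dinucleotide that closes the intron. Where an exon can open at either of a pair of such sites, use of the upstream site adds the segment between them to the mRNA. Use of the downstream site leaves it out. SR proteins such as SRSF1 bind exonic, purine-rich sequence and help U2AF to a nearby 3' splice site, and hnRNP proteins such as HNRNPL bind CA-rich RNA and can block or favour a site. PSI is here the share of transcripts that use the upstream site, in percent. Where the exon runs through both sites, a higher PSI means that more transcripts carry the segment. Where the upstream site opens another exon or no annotated exon, PSI gives only the use of that site. The mRNA then need not carry the whole stretch between the sites.

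The RNA came from MM.1S and INA-6, a pair of established human myeloma lines, whose tumour grows out of plasma cells, in 42 strand-specific libraries that form 14 groups of 3. Cells with interleukin-6 (IL-6), a growth factor of plasma cells, for 24 hours were set against cells without it in both lines. In the other comparisons Cas9-expressing cells carried a lentiviral guide for POU2AF1, ELL2, SRSF1 or HNRNPL, and the controls carried one for EGFP (sgEGFP). All guide RNA groups, sgEGFP included, had 2 days of puromycin and IL-6, for 24 hours in MM.1S and for a time that the INA-6 labels do not give. Guides for SRSF1 and HNRNPL were used in MM.1S alone. POU2AF1 is a B-cell transcriptional coactivator and ELL2 an elongation factor of RNA polymerase II that plasma cells use for antibody mRNA. Gene expression is not in the tables used here, so loss of the targeted genes, and the markers of the cell lines, could not be checked.

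Read numbers are not in the tables, so the depth behind a PSI value is unknown and the spread between the 3 libraries is the only measure of precision. The labels do not say whether the libraries are separate cultures, so a p-value measures only the spread between libraries, which may be technical. Over the members, PSI of libraries of the same group correlated at 0.963 to 0.978 in the complete sgSRSF1 and sgHNRNPL tables, across 3411 and 2894 events, as a description. The sgSRSF1 and sgHNRNPL comparisons have the same sgEGFP libraries, with identical values in 2579 of 2579 members. The INA-6 sgPOU2AF1 and sgELL2 comparisons also share theirs, in 116 of 116 members, while the MM.1S sgPOU2AF1 and sgELL2 comparisons have controls of their own.

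The sequences below are those of the splice sites that recur in the results, so that the pairs of sites can be compared. Each runs 5' to 3' from 20 bases before the site to 3 bases after it, on the GRCh38 build, as read from GENCODE release 29 transcripts that cover the site. Capitals mark the AG that ends the intron, and the bases after it are the first of the exon. The upstream site comes first where transcripts cover both.
ZNF384 upstream site (chr12:6678458-6678480, minus strand): cctttttctcccaatcctAGgtc
ZNF384 downstream site (chr12:6678341-6678363, minus strand): tcttccccctggctcacaAGccc
CFAP119 upstream site (chr16:30759722-30759744, minus strand): catcttgctttccctaccAGcaa
CFAP119 downstream site (chr16:30759442-30759464, minus strand): ccacagcggcctcctttcAGcat
CFAP119 other downstream site (chr16:30759456-30759478, minus strand): attccgagtcaccaccacAGcgg
MAF upstream site (chr16:79598401-79598423, minus strand): atgttcaatgatctcagcAGagt
MAF downstream site (chr16:79594551-79594573, minus strand): tcctttcattccaattacAGaac
BRD1 downstream site (chr22:49787492-49787514, minus strand): caaaacctttttgtctgtAGtcc
ST6GALNAC4 downstream site (chr9:127910056-127910078, minus strand): tgtccccccgccacccccAGgag
NCOA7 downstream site (chr6:125888952-125888974, plus strand): gatctttgtcctctgtacAGgcc
ZNF544 downstream site (chr19:58246726-58246748, plus strand): aatctgatgtgatctctcAGctg
CASP8 downstream site (chr2:201266467-201266489, plus strand): ttctcctgccttttaaaaAGatg
KMT2D downstream site (chr12:49052132-49052154, minus strand): cacctttttctccactggAGgag
POLR2H downstream site (chr3:184363406-184363428, plus strand): tccggtcttgtccacgctAGggg

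Among the 17 bases that precede the last 3 bases of the intron, pyrimidines number 15 at the ZNF384 upstream site and 14 at its downstream site. At MAF the order is the other way, with 9 at the upstream and 13 at the downstream site, and at CFAP119 the upstream site has 14 against 12 and 10 at the downstream sites. The AG stood before the upstream site in 99.7% of the 1207 members for which transcripts cover that intron end, and before the downstream site in 99.9% of 2472.

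The members fell into 3 kinds by the annotation of the upstream site. In 2037 members (45.1%) the upstream site opens an annotated exon that runs through the downstream site, so the segment is an exon extension, with a median length of 69 nt and quartiles of 34 and 177 nt. In 405 members (8.97%) the upstream site opens another annotated exon that ends before the downstream site, and the median distance was 2656 nt. In 2073 members (45.9%) the upstream site opens no annotated exon, with a median distance of 2930 nt. The strands were evenly represented, with 2221 members on plus and 2294 on minus. Since 1 upstream site can be paired with several downstream sites, the 4515 events have 3933 upstream sites. Of the upstream sites with several events, 315 of 356 in the sgSRSF1 table and 252 of 284 in the sgHNRNPL table had identical PSI values in all of them, so such events are not separate observations.

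Of the extensions, 1224 lay wholly in coding sequence, and 644 of these (52.6%) had a length divisible by 3, which keeps the reading frame. The share was 33.1% of 127 extensions in 5' UTRs, 35% of 60 in 3' UTRs, 30.8% of 237 that span coding and UTR sequence and 34.2% of 389 in non-coding transcripts. Frame-keeping lengths were thus more frequent in coding extensions than in the other kinds, which lay near the value that lengths without regard to frame would give.

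Use of the upstream site differed by kind. Extensions were mostly included: their median PSI was 77.6% in sgSRSF1 cells and 80.0% in sgEGFP cells (1618 events with all libraries), and 78.6% in sgHNRNPL cells against 78.2% in sgEGFP cells (1504 events). Sites of another exon had medians of 17.04% in sgSRSF1 and 15.6% in sgEGFP cells, and of 23.7% in sgHNRNPL and 21.6% in sgEGFP cells. Unannotated upstream sites were minor sites, with medians of 6.44% in sgSRSF1 and 7.71% in sgEGFP cells, and of 12.4% in sgHNRNPL and 11.5% in sgEGFP cells. The limit of 5% could act only on events with a value in the sgHNRNPL table. The distribution of extensions was broad, with 65.2% of them above a PSI of 50% in sgSRSF1 cells and 65.9% in sgEGFP cells, whereas 3.64% and 4.04% of the unannotated sites were above it in these groups.

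**Figure D1:**
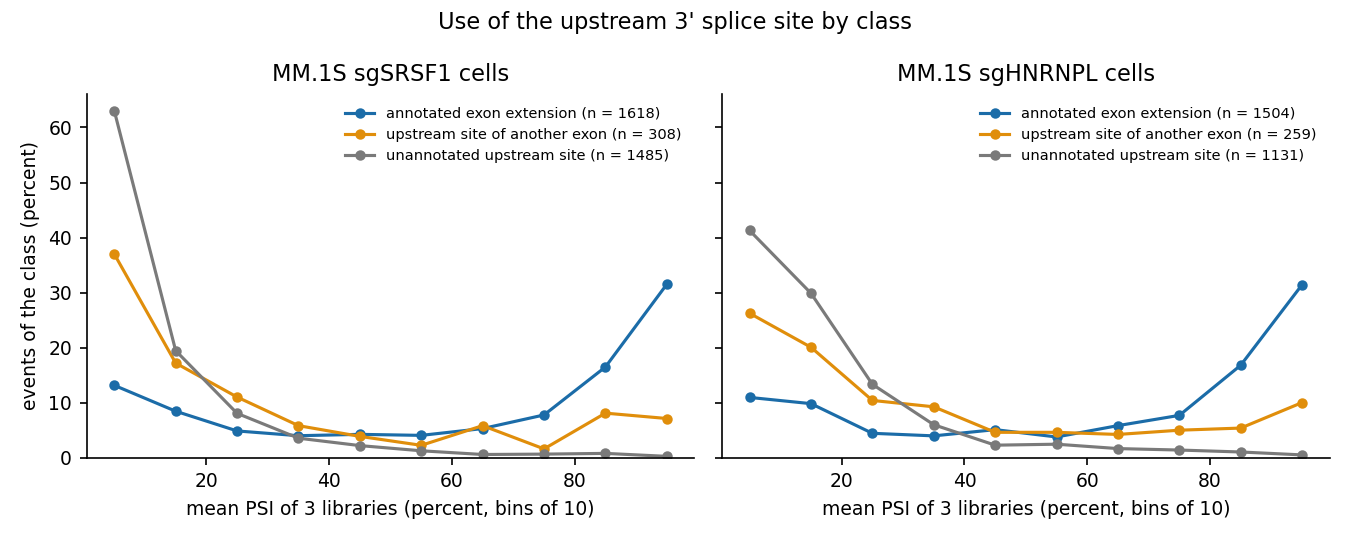
Percent of the events of each kind (y axis) by mean PSI of 3 libraries in bins of 10% (x axis), in MM.1S sgSRSF1 cells (left) and MM.1S sgHNRNPL cells (right). Extensions pile up at high PSI, and unannotated upstream sites at low PSI.

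PSI of the extensions was lower where the competing downstream site had more pyrimidines. The median PSI was 82.4% in sgSRSF1 cells and 86.4% in sgEGFP cells for 679 extensions whose downstream site had 11 or fewer pyrimidines in 17 bases. It was 74.0% in sgSRSF1 and 77.9% in sgEGFP cells for 560 with 12 or 13, and 66.3% in sgSRSF1 and 71.4% in sgEGFP cells for 288 with 14 or more. This is an order across sites of the same libraries and was not tested.

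At the PSI limit the last members kept were in BUD13, TNFRSF1B and TUBGCP5, each with a mean of 5.01% in sgEGFP cells, and the first left out were in CNOT10 at 5.00%, SFT2D1 at 4.99% and LMO7 at 4.98%. The libraries of a single such event spread widely, with 1.86%, 8.16% and 5.00% for BUD13. At the length limit, 17 members had a target of 13 nt, while 45 alternative 3' splice sites of 12 nt were left out.

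Events counted as called had a p-value under 0.05 in the authors' deposited table, which carries no correction for many events, and mean PSI that lay 10 or more points apart. In every member so called in the 8 comparisons the libraries of the groups did not overlap, so a lack of overlap adds nothing to a call. The tables of sgSRSF1 and sgHNRNPL list all events, and the other 6 list only events with a p-value under 0.05, besides INA-6 events with no p-value, so a share of called events in those 6 is the share of listed events that reached 10 points. In each such table the members called and the background were as follows. IL-6 in MM.1S called 59 of 302 members (19.5%, against 13.9% of all listed events and 21% of those at or above the PSI limit). IL-6 in INA-6 called 52 of 256 members (20.3%, against 12.2% and 15.2%). The sgPOU2AF1 guide called 36 of 189 in MM.1S (19%, against 10.2% and 15.1%) and 67 of 297 in INA-6 (22.6%, against 10.1% and 14.4%). The sgELL2 guide called 24 of 123 in MM.1S (19.5%, against 11% and 14.6%) and 36 of 213 in INA-6 (16.9%, against 10.2% and 11.1%). For IL-6 in MM.1S the members' share was thus no higher than that of events at or above the limit. The share at or above the limit, here and for sgSRSF1 below, takes events of all types with a value in the sgHNRNPL table. Members without a value there were kept, so the members and this background were filtered differently.

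With limma on logit PSI, adjusted by Benjamini-Hochberg over the 58062 events of the complete sgSRSF1 table, 0 members were called in any of these 6 comparisons, with the smallest adjusted p of a member between 0.0837 and 0.231 by comparison. Of all events fitted, limma called 0.039% for IL-6, 0.0274% for sgPOU2AF1 and 0.0805% for sgELL2 in MM.1S, and 0%, 0.016% and 0.032% for IL-6, sgPOU2AF1 and sgELL2 in INA-6. All 302, 189, 123, 256, 297 and 213 listed members had an unadjusted p under 0.05, since the tables were cut there. For a single event, 3 libraries against 3 cannot give an exact two-sided permutation p below 0.1. The single events of these 6 comparisons are therefore given as values with the spread of the libraries.

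The complete tables called 303 of 3528 members for sgSRSF1 (8.59%, against 5.75% of all events and 10.1% of those at or above the PSI limit), 102 higher and 201 lower in sgSRSF1 than in sgEGFP cells (higher calls were 1.84% and lower calls 3.91% of all events, and 3.29% and 6.82% of those at or above the limit). For sgHNRNPL they called 108 of 3021 members (3.57%, against 1.81% and 3.06%), 70 higher and 38 lower in sgHNRNPL than in sgEGFP cells (1.12% and 0.686% of all events, and 1.76% and 1.3% of those at or above the limit). With limma and adjustment over all events, 200 members were called for sgSRSF1, 66 higher and 134 lower, against 4.11% of all events tested. For sgHNRNPL limma called 8, 4 higher and 4 lower, against 0.234% of all events tested. With Benjamini-Hochberg on the deposited p-values themselves, 14 of the 303 called members for sgSRSF1 stayed under 0.05. For sgHNRNPL 0 of the 108 did, and no share over all events is given for this. The rule for the members used the sgEGFP libraries of both comparisons, so these counts describe the members and nothing is read from them. Without the PSI limit the sgHNRNPL count was 151, with 113 higher and 38 lower, so the limit removed higher calls only.

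**Figure D2:**
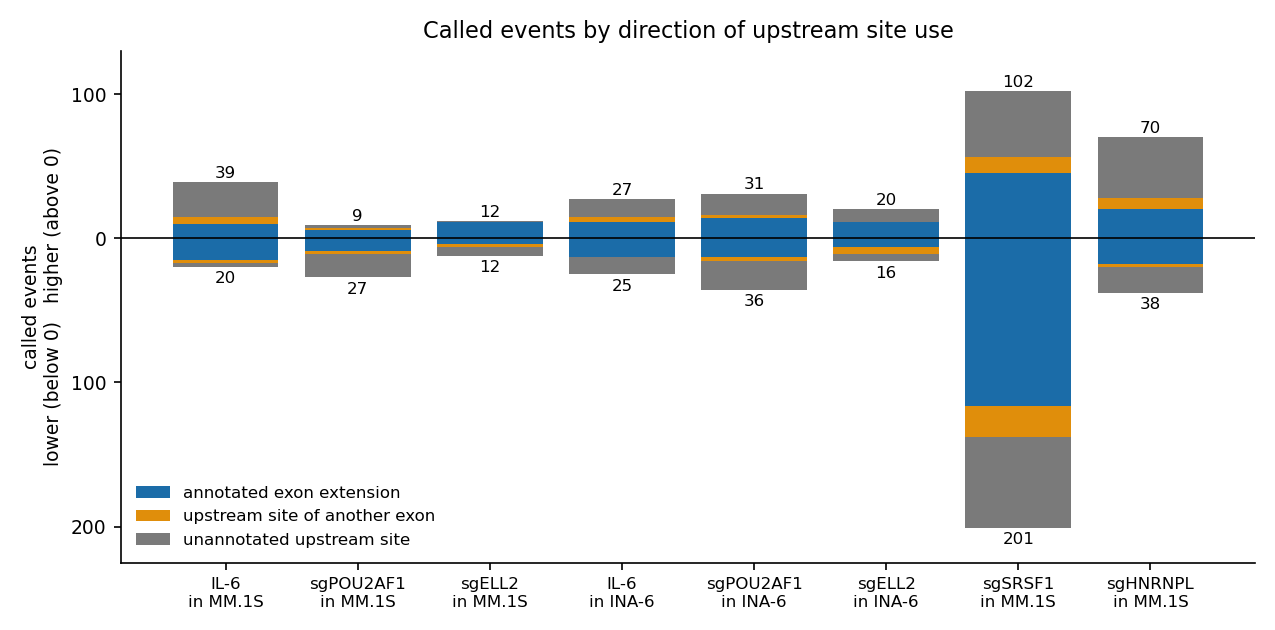
Number of members called in each comparison, with higher PSI than the control above 0 and with lower PSI below 0, stacked by the annotation of the upstream site. Totals stand at the bar ends. The fewest calls were 12 higher and 12 lower for sgELL2 in MM.1S, and the most were 102 higher and 201 lower for sgSRSF1 in MM.1S.

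Neither sgSRSF1 nor sgHNRNPL libraries were used to choose the members, so these groups were tested against each other directly. Of 2572 members with values in both, 182 differed by limma at an adjusted p under 0.05 and at least 10 points, 53 higher and 129 lower in sgSRSF1 than in sgHNRNPL cells, in 162 genes. The share of 7.08% stood against 4.94% of all 43097 events tested and 7.78% of those at or above the PSI limit. Members were thus called about as often as events of all types at or above the limit. Higher calls made up 2.06% of the members, 1.51% of all events and 2.33% of those at or above the limit, and lower calls 5.02%, 3.43% and 5.46%. The median difference was -1.13 points over the members and -0.24 points over all events tested. Without any 1 of the 6 libraries the count was between 68 and 98, and lower calls stayed the more numerous in each case (53 to 71 lower, 14 to 27 higher).

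The largest lower events were at sites with no annotated exon and at extensions. At MOSPD2, a membrane protein that tethers the endoplasmic reticulum to other organelles, PSI was 5.00%, 3.39% and 0% in sgSRSF1 libraries and 48.7%, 55.3% and 61.9% in sgHNRNPL libraries (chrX:14881863-14892723, unannotated upstream site). The libraries were far apart, with a difference of -52.50 points and an adjusted p of 0.0112 by limma. The sgEGFP mean of 16.0% lay between these groups.

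At POLR2H, a subunit of RNA polymerase II, the upstream site adds 353 nt of 5' UTR (chr3:184362873-184363225), and PSI was 12.5%, 16.4% and 11.8% in sgSRSF1 libraries and 54.5%, 58.9% and 60% in sgHNRNPL libraries. All sgSRSF1 libraries were lower, with a difference of -44.27 points (limma, adjusted p = 0.00507), and sgHNRNPL cells stood near the sgEGFP mean of 63.1%. The upstream site is also paired with the downstream site whose sequence is shown above, 553 nt away, with the same values in sgSRSF1 libraries. ASB16-AS1, an antisense RNA, had the same order at an extension of 1180 nt (chr17:44176637-44177816), with 15.1% ± 2.48 in sgSRSF1 and 59.7% ± 3.56 in sgHNRNPL cells (SD, n = 3 libraries each), and a sgEGFP mean of 56.5%. STEAP1B, a member of the STEAP metalloreductase family, had 41.6% ± 3.48 in sgSRSF1 and 88.1% ± 1.05 in sgHNRNPL cells at a coding extension of 57 nt (chr7:22493780-22493836), a difference of -46.56 points and the smallest adjusted p of the named events (limma, 0.00365). UGGT2, a glucosyltransferase that marks misfolded glycoproteins, had 0%, 0% and 3.85% in sgSRSF1 libraries and 48.6%, 35.5% and 50.7% in sgHNRNPL libraries at an unannotated site (chr13:95801813-95816104), with a sgEGFP mean of 12.9%. These groups did not overlap (limma, adjusted p = 0.00987). ENSG00000267645 had 33.2% ± 11.7 in sgSRSF1 and 79.5% ± 8.28 in sgHNRNPL cells.

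The largest higher event was in CASP8, the initiator caspase of death receptor signalling. Its upstream site adds 26 nt of coding sequence (chr2:201266461-201266486), a length that shifts the frame, ahead of the downstream site printed above. PSI was 47.5%, 48.7% and 48.2% in sgSRSF1 libraries and 11.1%, 11.3% and 5.59% in sgHNRNPL libraries. The difference was 38.81 points (limma, adjusted p = 0.0088), and the sgEGFP mean of 28.9% ± 3.57 lay between, so sgSRSF1 stood above and sgHNRNPL below it.

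FIP1L1, which encodes a subunit of the cleavage and polyadenylation machinery, had 62.2%, 66.6% and 63.3% in sgSRSF1 libraries and 38.8%, 32.4% and 34.9% in sgHNRNPL libraries. Its upstream site opens another annotated exon (chr4:53440582-53442652), the difference was 28.68 points (limma, adjusted p = 0.00991), and the sgEGFP mean was 33.2%, near that of sgHNRNPL. TAOK2, a protein kinase of the STE20 family, had 70.3% ± 7.93 in sgSRSF1 and 36.0% ± 8.26 in sgHNRNPL cells. PIGQ, of the first step of GPI anchor synthesis, had 38.5% ± 5.29 in sgSRSF1 and 6.39% ± 3.09 in sgHNRNPL cells. SCG5, a chaperone of a prohormone convertase, had 46.9% ± 2.68 in sgSRSF1 and 16.99% ± 6.73 in sgHNRNPL cells, and ENSG00000290931 had 49.4% ± 6.54 in sgSRSF1 and 20.6% ± 4.13 in sgHNRNPL cells.

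Of these 12 named events, CASP8, FIP1L1, MOSPD2, POLR2H, STEAP1B, ASB16-AS1 and UGGT2 kept the call without any 1 of the 6 libraries, with adjusted p up to 0.0428 by limma. PIGQ kept it without 3 of the 6, ENSG00000267645 and ENSG00000290931 without 2, SCG5 without 1 and TAOK2 without 0, where the largest adjusted p was 0.0660 for PIGQ, 0.0825 for ENSG00000267645, 0.0685 for ENSG00000290931, 0.0793 for SCG5 and 0.102 for TAOK2. The differences kept their direction in each case.

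**Figure D3:**
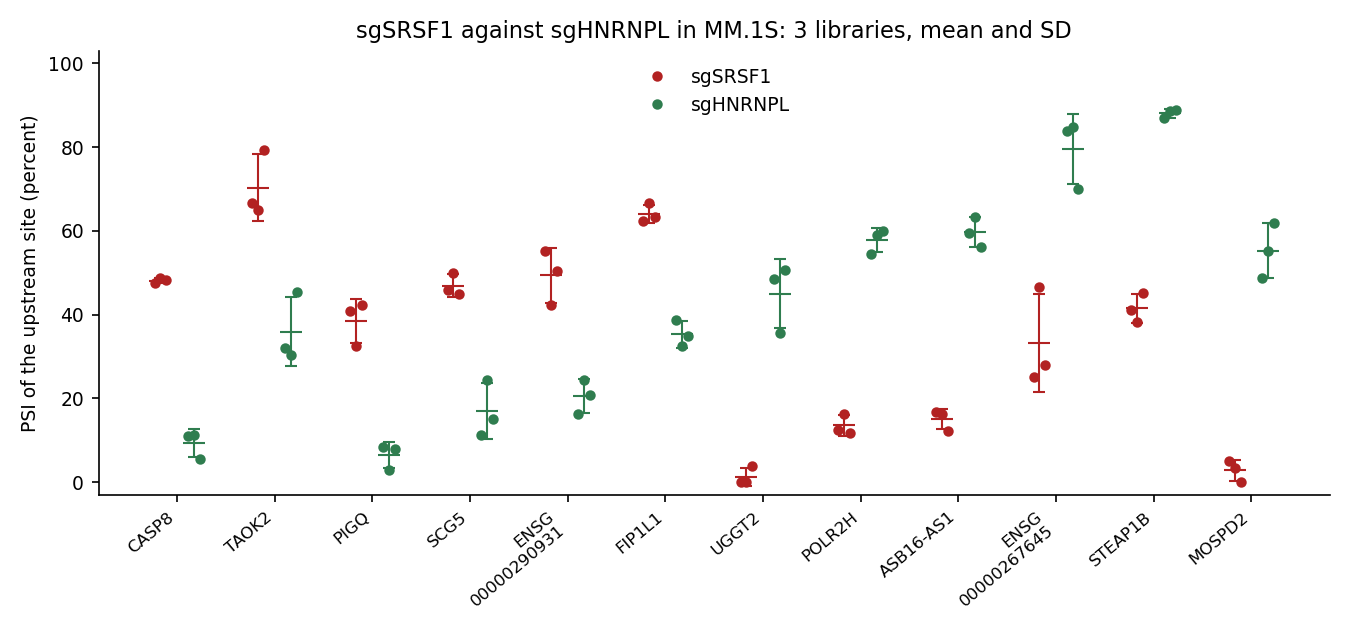
PSI of the upstream site (y axis, percent) in the 12 named events of the direct comparison, in the 3 sgSRSF1 and the 3 sgHNRNPL libraries, with mean and SD. The groups do not overlap in any of the 12 events, 6 higher and 6 lower in sgSRSF1 cells.

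Called extensions were more frequent among long than among short ones, a pattern that was not tested. Among 961 extensions of 13 to 120 nt, 33 differed (3.43%), 17 higher and 16 lower in sgSRSF1 than in sgHNRNPL cells. Among 432 longer extensions, 52 differed (12.04%), 10 higher and 42 lower. Over all events, 4.94% were called, or 7.78% at or above the PSI limit, and 1479 of the 2131 calls were lower. Lower calls were 17 of 228 extensions of 121 to 300 nt and 25 of 204 longer ones. The median length was 254.5 nt for lower events, 63 nt for higher events and 61 nt for events not called. Leaving out any 1 of the 6 libraries left 16 to 28 lower and 0 to 7 higher calls among the extensions over 120 nt, and 4 to 8 lower and 5 to 8 higher calls among the shorter ones. Lower extensions over 120 nt included ZNF419 (1512 nt, with 2 libraries in sgHNRNPL), SLFN13, CENPV, CCNL2, CYP2R1, AIM2, CDK13, RSRP1, BTN3A2, BIRC5 and ZC3H11A. The kinds of upstream site were alike in direction: 27 higher and 58 lower of 1393 extensions, 8 and 15 of 227 sites of another exon, and 18 and 56 of 952 unannotated sites.

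**Figure D4:**
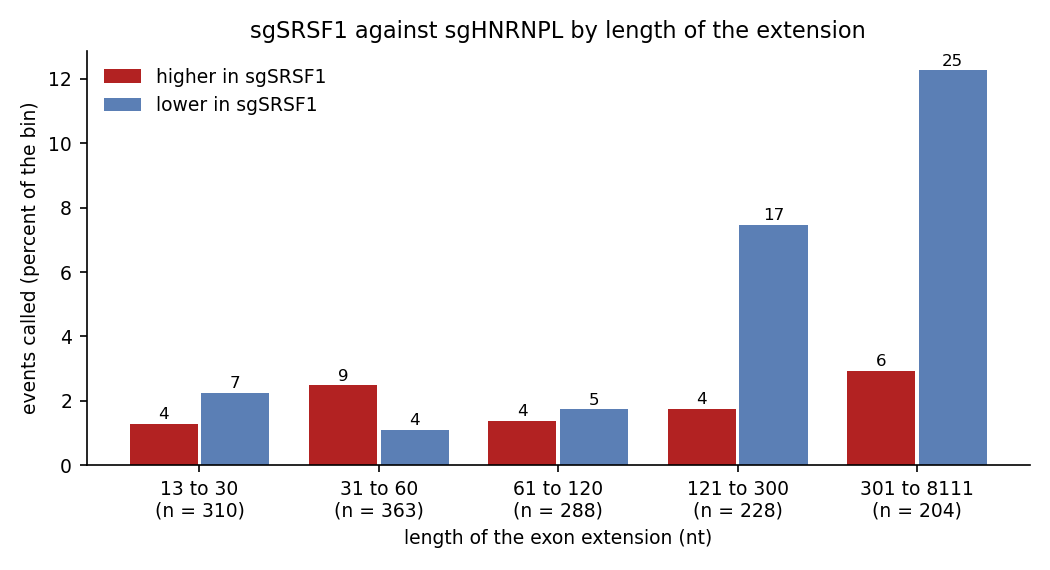
Percent of the exon extensions called in sgSRSF1 against sgHNRNPL cells (y axis) by length of the extension (x axis, nt), higher and lower in sgSRSF1 cells, with the number called above each bar. Lower calls make up 25 of 204 extensions over 300 nt and 7 of 310 of 30 nt or less.

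In the segments the triplet GGA, the core of purine-rich elements that SRSF1 is known to bind, was counted on the transcript strand in the first 50 bases after the upstream site, for extensions of at least 70 nt. It was found in 38 of 47 lower extensions (80.9%), 5 of 13 higher extensions (38.5%) and 364 of 595 not called (61.2%), against 62.1% of all 655. The order was the same for sgHNRNPL against sgEGFP, at 7 of 9 lower, 6 of 14 higher and 448 of 716 not called. For sgSRSF1 against sgEGFP it was 69 of 83 lower, 13 of 28 higher and 448 of 713 not called. These comparisons share libraries, and whether the order is linked to SRSF1 was not tested. Events that share an upstream site also share this window. The 58 lower extensions of the direct comparison, of any length, lay in 52 genes. The longer motif GGAGA, which contains GGA, was found in 4 of 47 lower, 1 of 13 higher and 55 of 595 not called extensions. The CA-rich ACACA was found in 2 of 47, 1 of 13 and 26 of 595. GAAGAA was found in 0 of 47, 0 of 13 and 17 of 595. A match of letters is a description of these windows and was not tested.

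For sgSRSF1 against sgEGFP 5 of the 10 members with the largest lower PSI were exon extensions. KMT2D, a histone H3K4 methyltransferase, had 55.0%, 30% and 48.1% in sgSRSF1 libraries and 100%, 100% and 87.5% in sgEGFP libraries at a coding extension of 290 nt (chr12:49052135-49052424). The groups did not overlap, and the difference was -51.45 points. POLR2H was lower at both of its pairs, with 13.6% ± 2.49 in sgSRSF1 cells and 63.1% ± 7.32 in sgEGFP cells. NCOA7, a nuclear receptor coactivator, had 32.4%, 40.7% and 27.0% in sgSRSF1 libraries and 82.2%, 68.6% and 77.6% in sgEGFP libraries at a coding extension of 33 nt (chr6:125888939-125888971), which keeps the frame. All sgSRSF1 libraries were lower, with a difference of -42.76 points.

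The other large lower events were LINC01399, PALS1, ASB16-AS1, IRF3, ENSG00000267645, CXXC4 and C19orf54. PALS1, of the Crumbs cell polarity complex, had 16.97% ± 5.81 in sgSRSF1 and 59.4% ± 10.2 in sgEGFP cells at 232 nt of coding and UTR sequence. IRF3, a transcription factor of the interferon response, had 19.6%, 20.5% and 19.6% in sgSRSF1 libraries and 56.7%, 51.5% and 58.6% in sgEGFP libraries at a site of another exon (chr19:49664674-49664846). The libraries of IRF3 varied little within each group. CXXC4, an inhibitor of Wnt signalling, had 56.9% ± 4.01 in sgSRSF1 and 91.8% ± 4.96 in sgEGFP cells.

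Of the 10 largest higher events for sgSRSF1, 7 were at unannotated sites. RBL1, the retinoblastoma-like protein p107, had 62.5%, 33.3% and 51.7% in sgSRSF1 libraries and 9.52%, 8.70% and 8.70% in sgEGFP libraries at a coding extension of 100 nt (chr20:37067022-37067121). The sgSRSF1 libraries were all above the sgEGFP libraries but ranged widely. PIGQ had 38.5% ± 5.29 in sgSRSF1 and 6.14% ± 4.94 in sgEGFP cells, and FIP1L1 64.0% ± 2.24 in sgSRSF1 and 33.2% ± 1.22 in sgEGFP cells. FIRRE, a long non-coding RNA of the X chromosome, had 53.4% ± 12.02 in sgSRSF1 and 15.6% ± 8.85 in sgEGFP cells. SSH1, a cofilin phosphatase, had 42.1% ± 7.81 in sgSRSF1 and 12.4% ± 8.14 in sgEGFP cells, and HES7, a Notch-pathway repressor, 43.1% ± 12.03 in sgSRSF1 and 13.3% ± 10.2 in sgEGFP cells. The remaining large higher events were ENSG00000227388, LINC01484, ENSG00000268750 and TAOK2, with differences of 41.73, 32.44, 30.71 and 29.57 points. By length, 74 lower and 15 higher events lay among 558 extensions over 120 nt, and 42 lower and 30 higher among 1118 shorter ones.

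For sgHNRNPL against sgEGFP the higher events were mostly unannotated sites, 42 higher against 18 lower, while extensions were evenly split at 20 and 18. Unannotated members had a median PSI of 11.5% in sgEGFP cells, which left less room to fall than to rise. KCNQ5, a potassium channel subunit, had 63.6%, 60% and 65.2% in sgHNRNPL libraries and 24.1%, 16.2% and 24.6% in sgEGFP libraries. Its sites lie 326813 nt apart (chr6:72677095-73003908), the upstream one opening another exon, and the groups differed by 41.33 points. MOSPD2 had 55.3% ± 6.59 in sgHNRNPL and 16.0% ± 9.14 in sgEGFP cells. SLC1A4, a neutral amino acid transporter, had 83.8% ± 3.41 in sgHNRNPL and 49.5% ± 8.51 in sgEGFP cells, and UGGT2 45.0% ± 8.24 in sgHNRNPL and 12.9% ± 2.49 in sgEGFP cells. LINC02987 and ENSG00000286848 were higher by 34.91 and 33.19 points. Among the lower events were ZNF438, ENSG00000290931, HCP5, NCOA7, ZNF85 and ZNF84. ZNF84 had 15.4% ± 4.96 in sgHNRNPL and 36.2% ± 1.02 in sgEGFP cells, and the ZNF438 libraries were wide in both groups, at 24.98% ± 15.7 and 63.2% ± 16.2. NCOA7 was lower in sgHNRNPL cells too, at 54.0% ± 10.2 against 76.1% ± 6.91 in the sgEGFP libraries that both comparisons share.

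With IL-6 in MM.1S, 27 upstream sites that open no annotated exon were called, 24 higher and 3 lower in cells with IL-6 than without. The 25 called extensions were split into 10 higher and 15 lower, and 7 sites of another exon into 5 and 2. Listed unannotated members had a median PSI of 5.85% without IL-6, so most of them could not fall by 10 points. The split by kind is given for members only. Over all kinds, 12.9% of the listed members were called higher and 6.62% lower, against 4.81% and 9.12% of all listed events and 6.98% and 14% of those at or above the PSI limit. The median difference was 1.11 points over the listed members and -0.30 points over all listed events. The split was not tested, and without any 1 of the 6 libraries 30 to 41 members were called, of which 18 to 26 were higher and 10 to 15 lower.

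CBFA2T2, a transcriptional corepressor, had 55.9%, 57.1% and 48.6% in libraries with IL-6 and 22.4%, 24.1% and 14.9% in libraries without IL-6 (chr20:33524600-33606956). All IL-6 libraries were higher, by 33.38 points (p = 0.00104 in the authors' deposited table, unadjusted). SNX22, a sorting nexin, had 8.96%, 9.76% and 14.4% with IL-6 and 34.9%, 35.7% and 39.8% without IL-6 at an extension of 392 nt in a non-coding transcript (chr15:64152243-64152634), a difference of -25.76 points. MAF, a transcription factor that is an oncogene in a subset of myelomas, had 28.2%, 25.8% and 25.3% with IL-6 and 16.2%, 14.1% and 13.02% without IL-6, between the sites printed above. The groups did not overlap for SNX22 or MAF, and CBFA2T2, SNX22 and MAF are the 3 of 23 named events that were called without any 1 library.

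Other higher events with IL-6 were AMZ2, CRTC1, ANKS6, ZNF133 and MYEOV. CRTC1, a coactivator of CREB, had 47.8% ± 5.00 with IL-6 and 17.2% ± 5.93 without it, and ANKS6 50.3% ± 4.62 with and 20.5% ± 5.39 without IL-6. ZNF133 had 45.0% ± 8.43 with and 20.04% ± 2.67 without IL-6 at an extension of 13 nt in the 5' UTR. MYEOV, named for its overexpression in myeloma, had 49.1% ± 7.57 with and 27.9% ± 3.46 without IL-6. Lower events were KIFC3, TTBK2, DELE1, TMEM147-AS1 and CEP70, besides SNX22. DELE1, which relays mitochondrial stress, had 20.5% ± 4.81 with and 41.8% ± 3.33 without IL-6. KIFC3, a kinesin, had 44.1% ± 9.84 with and 71.4% ± 7.73 without IL-6, and the tubulin kinase TTBK2 58.9% ± 8.39 with and 81.7% ± 9.30 without IL-6. In all of these the libraries of the groups did not overlap, as in all 59 members called there, which adds nothing to the call. Each of them except SNX22 lost the call without at least 1 library.

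With the POU2AF1 guide in MM.1S, unannotated sites went the other way: 16 of the 18 called were lower and 2 higher than in sgEGFP cells, and called extensions were split into 6 higher and 9 lower. Members called higher were 4.76% of those listed and members called lower 14.3%, against 5.66% and 4.58% of all listed events and 8.21% and 6.85% of those at or above the PSI limit. The median difference was -2.67 points over the listed members and 0.62 points over all listed events. Without any 1 library, 16 to 24 members were called, 12 to 20 of them lower and 2 to 9 higher.

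GRB14, an adaptor of receptor tyrosine kinases, had 0%, 15.8% and 0% in sgPOU2AF1 libraries and 16.7%, 30% and 31.7% in sgEGFP libraries. NUMB, an inhibitor of Notch, had 7.67% ± 5.16 in sgPOU2AF1 and 27.6% ± 7.08 in sgEGFP cells. PTGES3, a co-chaperone of HSP90, had 9.71% ± 1.89 in sgPOU2AF1 and 28.9% ± 6.77 in sgEGFP cells. These 3 upstream sites were minor in the control and less used with the guide. ZSCAN32, CBY1 and MRPS31P5 were lower, with differences of -18.79, -17.68 and -17.36 points, and reads of the pseudogene MRPS31P5 may be shared with related copies. The higher events were EP300-AS1, with 56.8% ± 14.96 in sgPOU2AF1 and 17.4% ± 4.52 in sgEGFP cells, ZNF419, ZBTB49, WDR20, CDADC1 and PLXNB2. CDADC1, a deaminase-like protein, had 90%, 88.5% and 86.7% in sgPOU2AF1 libraries and 78.9%, 75.8% and 73.6% in sgEGFP libraries at a coding extension of 140 nt (chr13:49259346-49259485).

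IL-6 and sgPOU2AF1 in MM.1S share no library, and 42 members were listed in both tables. Of these, 7 events in ENTR1, KIFC3, MAF, OGFOD3, ST6GALNAC4 and TTBK2 were called in both, 5 in opposite directions and 2 in the same direction. They are 7 of the 59 members called for IL-6 (11.9%) and of the 36 called for sgPOU2AF1. Over all events, 48 were called in both comparisons, 44 in opposite directions and 4 in the same direction, so opposite calls are not particular to the members. MAF had 18.1%, 13.5% and 14.7% in sgPOU2AF1 libraries and 24.6%, 26.4% and 31.6% in sgEGFP libraries, a difference of -12.09 points against 12.03 points with IL-6. ST6GALNAC4, a sialyltransferase, had 28.5%, 27.4% and 27.7% in sgPOU2AF1 libraries and 40.5%, 39.0% and 38.7% in sgEGFP libraries at its extension of 470 nt (chr9:127910059-127910528). With IL-6 the same extension had 31.2%, 37.7% and 31.7%, against 22.0%, 20.5% and 20.8% without IL-6. The difference was -11.53 points with the guide and 12.38 points with IL-6, with no overlap of libraries in either comparison. The sgEGFP level of ST6GALNAC4 varied between the MM.1S control sets, which all had IL-6. Its mean was 39.4% in the control of sgPOU2AF1, 32.0% in that of sgELL2 and 31.4% in that of sgSRSF1 and sgHNRNPL. The fall with sgPOU2AF1 was thus measured against the highest control. The sgPOU2AF1 call of ST6GALNAC4 was the 1 of 18 named that remained without any 1 library.

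In INA-6, IL-6 gave 27 higher and 25 lower members, close to even within extensions (11 and 13) and unannotated sites (12 and 12), with 4 higher and 0 lower sites of another exon. Higher calls were 6.3% and lower calls 5.92% of all listed events, and each was 7.6% of those at or above the PSI limit. NDUFS7, a subunit of respiratory complex I, had 69.6%, 58.8% and 45.5% with IL-6 and 23.5%, 35.7% and 35.7% without IL-6. MDM4, the p53 inhibitor, had 42.9%, 18.2% and 40.7% with IL-6 and 71.4%, 50% and 72.7% without IL-6 at a coding extension of 29 nt (chr1:204537430-204537458). Libraries did not overlap at either, but each group of MDM4 had 1 low library. NFKBID, a nuclear inhibitor of NF-kB, had 11.4% ± 7.60 with and 31.9% ± 2.52 without IL-6 at 45 nt of coding sequence. SLC15A4, a histidine and peptide transporter of lysosomes, had 82.5% ± 1.49 with and 66.9% ± 5.46 without IL-6. Also higher were PTOV1-AS2, AMZ2, ENSG00000287176 and PRDX6-AS1, by 15.29 to 19.86 points. Also lower were ENSG00000259972, ATAD3B, ENSG00000272328 and CD2BP2-DT, with differences of -35.63, -24.02, -21.40 and -18.50 points. Without any 1 library 19 to 31 members were called, and 0 of the 15 named events kept the call throughout.

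The cell lines could be compared at 22 members listed for IL-6 in both. At AMZ2, a metalloprotease, PSI was 37.1%, 57.1% and 50% with IL-6 and 20%, 12.5% and 16.7% without IL-6 in MM.1S. In INA-6 it was 61.8%, 60.7% and 61.8% with IL-6 and 51.6%, 40.9% and 39.1% without IL-6, so it was higher with IL-6 in both lines. BMP8B, a bone morphogenetic protein, was higher with IL-6 by 13.41 points in MM.1S and by 13.13 points in INA-6, nearly the same size in each line. At BRD1, a bromodomain scaffold of histone acetyltransferase complexes, PSI was 50%, 43.3% and 42.6% with IL-6 and 35.4%, 32.7% and 28.3% without IL-6 in MM.1S. In INA-6 it was 31.4%, 32.9% and 28.2% with IL-6 and 44.3%, 46.7% and 43.3% without IL-6. The coding extension of 393 nt (chr22:49787495-49787887) was thus used more with IL-6 in MM.1S and less in INA-6, and the lines differed by 27.11 points. Each line's own adjusted p was 0.372 in MM.1S and 0.417 in INA-6 by limma. The BRD1 level also differed between sets of MM.1S libraries. The sgEGFP libraries of the sgHNRNPL comparison, which had IL-6, had a mean of 19.8%. This lay below the means of 45.3% with and 32.1% without IL-6. Of the 22 members, 8 had opposite directions in the lines and 9 passed limma's interaction term, against 34.8% of all events listed in both tables. Since both tables list events by a p-value under 0.05, an event with opposite directions was already selected for such a difference, and the interaction is given as a description.

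In INA-6 the POU2AF1 guide gave 31 higher (10.4%) and 36 lower members (12.1%), against 5.32% and 4.82% of all listed events and 7.33% and 7.11% of those at or above the PSI limit. PALD1 had 83.3%, 88.2% and 76.5% in sgPOU2AF1 libraries and 63.6%, 50% and 45.5% in sgEGFP libraries. LPAR2, a receptor of lysophosphatidic acid, had 54.2% ± 3.85 in sgPOU2AF1 and 30.2% ± 6.72 in sgEGFP cells. BRINP3 had 30%, 23.5% and 25% in sgPOU2AF1 libraries and 63.2%, 60% and 52.6% in sgEGFP libraries. The PALD1, LPAR2 and BRINP3 libraries did not overlap. GIT2, an ARF GTPase-activating protein, had 20.6% ± 7.64 in sgPOU2AF1 and 50% ± 7.14 in sgEGFP cells, and ZNF37A 13.4% ± 8.37 in sgPOU2AF1 and 35.9% ± 6.99 in sgEGFP cells. ENSG00000286656, RRP7BP, TEKT4P2 and ENTPD1-AS1 were higher by 28.54, 21.49, 20.07 and 19.58 points, and FAM86B3P, C1RL-AS1 and C2orf27A lower, with differences of -25.45, -21.26 and -19.53 points. RRP7BP, TEKT4P2 and FAM86B3P are pseudogenes, so their reads may be shared with related genes. ZNF544 was the only member called with this guide in both lines: it had 59.8%, 51.3% and 59.8% in sgPOU2AF1 libraries and 66.3%, 70.1% and 65.7% in sgEGFP libraries of MM.1S, and 59.0%, 58.7% and 58.3% in sgPOU2AF1 libraries and 66.5%, 70.9% and 69.5% in sgEGFP libraries of INA-6. The coding extension of 35 nt (chr19:58246711-58246745) was thus lower, with differences of -10.39 points in MM.1S and -10.28 points in INA-6. In all, 14 members were listed in both lines, and 4 of the 13 that could be fitted passed the interaction term (limma, against 23.4% of events listed in both tables, with the same selection).

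With the ELL2 guide in MM.1S, called extensions were higher in 11 and lower in 4 cases, and unannotated sites higher in 1 and lower in 6. Over all kinds, 12 members were higher and 12 lower (9.76% each), against 5.28% and 5.7% of all listed events and 6.31% and 8.3% of those at or above the PSI limit. FN1, fibronectin, had 79.3%, 68.0% and 73.5% in sgELL2 libraries and 52.2%, 52.4% and 60.9% in sgEGFP libraries at a coding extension of 360 nt (chr2:215372016-215372375). RSRP1 had 30.4%, 18.8% and 31.2% in sgELL2 libraries and 11.8%, 6.67% and 0% in sgEGFP libraries. SFMBT2, a Polycomb group protein, had 54.0% ± 4.35 in sgELL2 and 35.0% ± 5.60 in sgEGFP cells. In each of these the sgELL2 libraries stood above all sgEGFP libraries. CHKB, a choline kinase, had 75.8% ± 1.58 in sgELL2 and 61.7% ± 3.37 in sgEGFP cells at 28 nt of coding sequence, and ACBD4 and PABPC1L were higher by 11.40 and 11 points. MRPS31P4, EEF1A1P23, ARID5A, GTPBP1, PKHD1L1 and ZNF544 were lower, with differences of -23.84, -15.80, -15.54, -13.96, -13.44 and -13.06 points, of which MRPS31P4 and EEF1A1P23 are pseudogenes.

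In INA-6 the ELL2 guide gave 11 higher and 6 lower extensions, 9 higher and 5 lower unannotated sites and 0 higher and 5 lower sites of another exon. Higher calls were 9.39% and lower calls 7.51% of the listed members, against 5.59% and 4.56% of all listed events and 6.17% and 4.94% of those at or above the PSI limit. MAN2A2, a mannosidase of N-glycan processing, had 33.3%, 45.0% and 26.8% in sgELL2 libraries and 52.4%, 69.0% and 51.9% in sgEGFP libraries. NAB1, a corepressor of EGR factors, had 75.8% ± 4.30 in sgELL2 and 90.6% ± 2.52 in sgEGFP cells. ENSG00000286656, ENTPD1-AS1, RRP7BP and PALD1 were higher by 25.42, 25.28, 24.73 and 23.98 points. They were also higher with sgPOU2AF1, but these comparisons have the same sgEGFP libraries. TOGARAM1 was higher by 18.69 points, and C2orf27A, ENSG00000233223, ENSG00000291171 and ENSG00000287176 lower, with differences between -14.39 and -11.91 points. Of 4 members listed for sgELL2 in both lines, 2 passed the interaction term (limma, against 19.1% of events listed in both tables, with the same selection).

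Of 584 members called in any of the 8 comparisons, 506 were called in 1, 61 in 2, 14 in 3 and 3 in 5. The same count over all events was not made, so recurrence is not read as a trait of the members. Nor are the comparisons independent, since sgPOU2AF1 and sgELL2 in INA-6 share sgEGFP libraries, as do sgSRSF1 and sgHNRNPL. BRD1, ENTPD1-AS1, CHST15, ENSG00000287176, ATAD3B, FBXO41, G3BP2, NCOA7 and ZNRF2P1 were called in both comparisons of such a pair. The 3 events called in 5 are in BRD1 and, sharing an upstream site, in ENTPD1-AS1. BRD1 was higher with IL-6 in MM.1S, with sgPOU2AF1 and with sgELL2 in INA-6 and with sgHNRNPL, and lower with IL-6 in INA-6. With sgHNRNPL it had 34.7%, 39.8% and 50%, against 14.5%, 24.1% and 20.7% in sgEGFP libraries. ENTPD1-AS1, an antisense RNA at the ENTPD1 locus, was lower with sgSRSF1, at 28.5% ± 2.05 against 44.2% ± 4.41 in sgEGFP cells, and higher in its other 4 comparisons, among them sgHNRNPL at 61.1% ± 5.08.

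The CFAP119 extensions of 280 and 266 nt, which have the upstream site printed above and identical values, were lower with IL-6 in MM.1S, at 32.5% ± 3.65 against 47.2% ± 5.39 without IL-6. They were higher with sgELL2 in INA-6, at 51.0% ± 5.72 against 28.1% ± 9.06 in sgEGFP cells, and with sgHNRNPL, at 49.5% ± 4.13 against 34.4% ± 3.23 in sgEGFP cells. The ZNF384 extension of 117 nt was higher in all 3 comparisons that called it: IL-6 in MM.1S gave 37.1% ± 2.97 against 26.6% ± 4.12 without IL-6, sgPOU2AF1 in INA-6 gave 29.1% ± 0.86 against 14.6% ± 3.83 in sgEGFP cells, and sgSRSF1 gave 33.2% ± 3.57 against 17.4% ± 2.11 in sgEGFP cells. ZNF384 is a zinc finger transcription factor that recurs in leukaemia fusions. NCOA7 was higher with IL-6, at 78.1% ± 2.78 against 66.6% ± 4.28 without IL-6, and lower with sgSRSF1 and sgHNRNPL. G3BP2, an RNA-binding protein of stress granules, was lower in 3 comparisons, with 6.15% ± 1.46 in sgPOU2AF1 cells of MM.1S against 18.2% ± 4.80 in sgEGFP cells.

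ATAD3B, a mitochondrial ATPase, was lower with IL-6 in INA-6, with sgSRSF1 (8.31% ± 1.504 against 36.4% ± 2.01 in sgEGFP cells) and with sgHNRNPL (25.9% ± 4.16). FBXO41 was lower with sgPOU2AF1 in MM.1S and with both splicing factor guides, with differences between -14.22 and -10.24 points. CHST15, a sulfotransferase of chondroitin sulfate, was lower with both guides in INA-6 and with sgSRSF1. ENSG00000287176 was higher with IL-6 in INA-6 and lower with both guides there. BMP8B was also higher with sgHNRNPL, at 71.1% ± 3.59 against 55.3% ± 4.18 in sgEGFP cells. The pseudogene ZNRF2P1, whose reads may be shared with related copies, was higher with IL-6 in MM.1S, sgSRSF1 and sgHNRNPL, by 11.88 to 15.08 points.

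**Figure D5:**
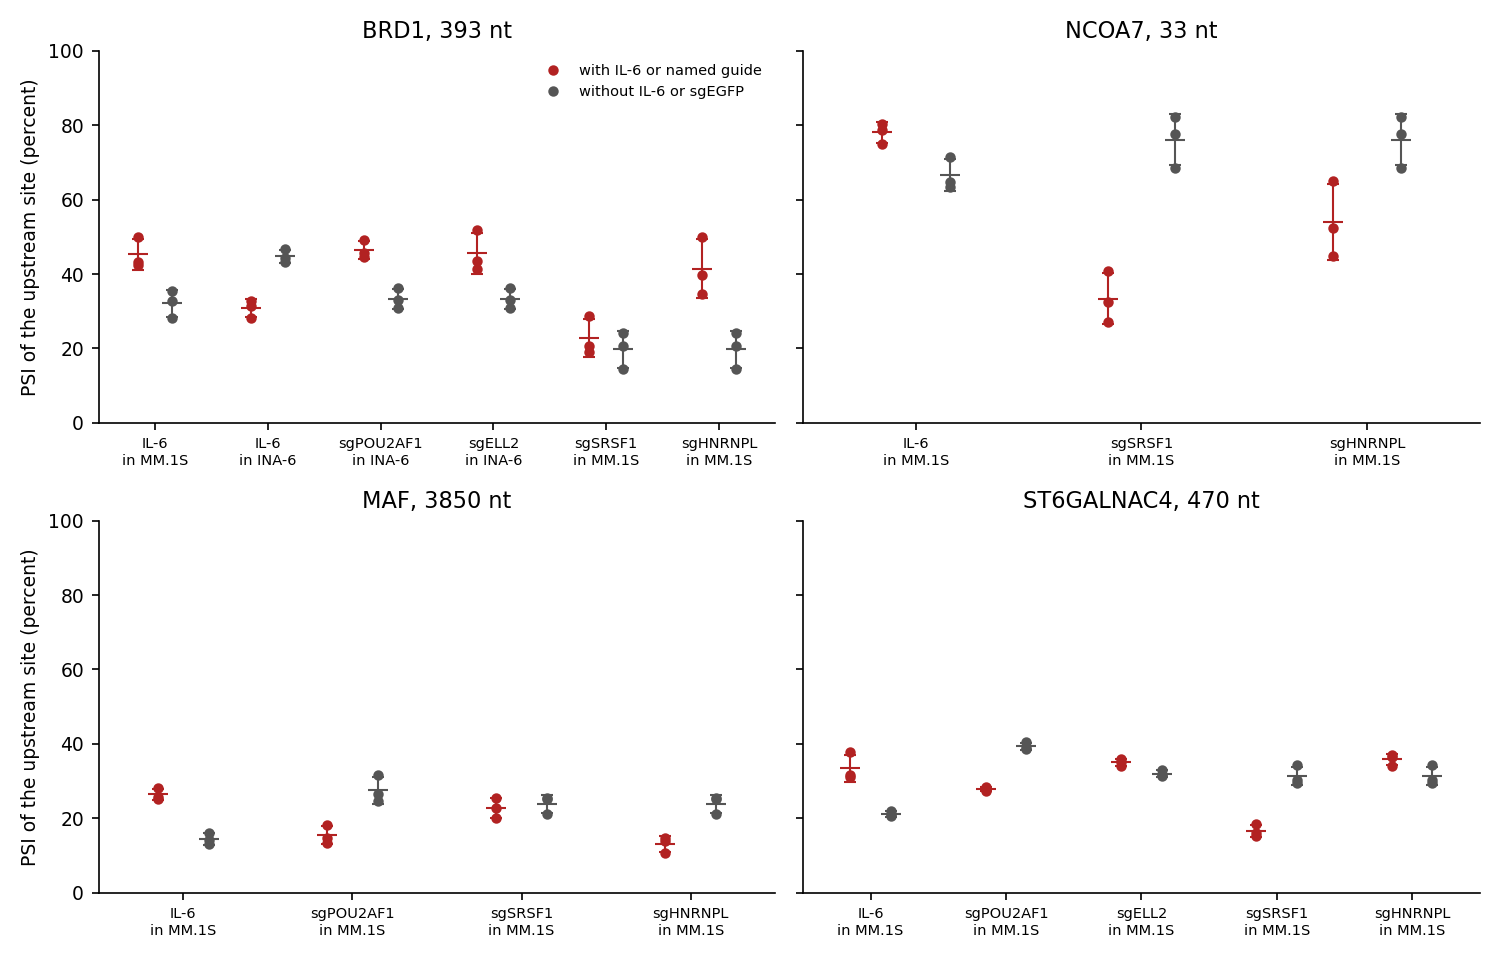
PSI of the upstream site (y axis, percent) at BRD1, NCOA7, MAF and ST6GALNAC4 in every comparison that lists them, with each library as a point and mean and SD as bars, the treated or guide group left of its control. BRD1 is higher with IL-6 in MM.1S and lower in INA-6, and MAF and ST6GALNAC4 are higher with IL-6 and lower with sgPOU2AF1 in MM.1S.

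In the 13 gene lists, few genes had a called member. The shares take the same genes in all 8 comparisons, so genes that a table of selected events does not list count as not called. Of the 21 genes of the core spliceosome and splice site recognition with a member event, 1 was called for sgSRSF1 against sgEGFP (4.76%, against 9.76% of all member genes). It was U2AF1L4, a paralogue of the small U2AF subunit, with 13.6%, 20% and 23.4% in sgSRSF1 libraries and 44.4%, 35.3% and 38.7% in sgEGFP libraries. In the direct comparison, where 8.93% of all member genes were called, 1 of 12 genes of this list was (8.33%): SART3, which recycles spliceosomal snRNPs, had 10.1%, 8.80% and 5.53% in sgSRSF1 libraries and 20.04%, 20.05% and 18.005% in sgHNRNPL libraries. Both were lower in sgSRSF1 cells. Of 6 genes of SR proteins and their kinases, CLK1 was called for sgSRSF1 (16.7%, against 9.76%), with 80.0% ± 4.69 in sgSRSF1 and 96.1% ± 4.81 in sgEGFP cells. Of 8 genes of hnRNP and related regulators, TIAL1 was called for sgSRSF1 (12.5%, against 9.76%), with 36.2% ± 3.32 in sgSRSF1, 53.1% ± 0.57 in sgHNRNPL and 56.2% ± 2.36 in sgEGFP cells. Of 9 genes of nonsense-mediated decay, UPF3A was called for sgSRSF1 (11.1%, against 9.76%), with 5.48% ± 2.16 in sgSRSF1, 24.1% ± 5.64 in sgHNRNPL and 16.2% ± 3.07 in sgEGFP cells. The calls of SART3 and TIAL1 against sgHNRNPL were lost without each of the 6 libraries, with adjusted p up to 0.102 and 0.0889 by limma, and that of UPF3A without 4 of them, up to 0.0706.

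Of 10 genes of transcription elongation, polyadenylation and termination, 4 were called for sgSRSF1 (40%, against 9.76%). FIP1L1 and CPSF4, both of the cleavage and polyadenylation machinery, were higher in sgSRSF1 cells, and AFF1, of the super elongation complex, and CDK13, a kinase of RNA polymerase II, were lower. CPSF4 had 47.7%, 47.4% and 44.9% in sgSRSF1 libraries and 25.8%, 31.3% and 25.4% in sgEGFP libraries at coding extensions of 78 and 75 nt. CDK13 had 17.4%, 15.6% and 17.6% in sgSRSF1 libraries and 42.9%, 41.1% and 41.6% in sgEGFP libraries at a coding extension of 180 nt (chr7:40092785-40092964). The CDK13 libraries hardly varied within each group, and all 3 sgSRSF1 libraries were lower. Against sgHNRNPL, CDK13 differed by -21.63 points, a call that held without 1 of the 6 libraries and was lost without the others (limma, adjusted p up to 0.0951).

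Among 7 B cell and plasma cell genes with a member event, MAF is described above, and TNFRSF13B, the receptor TACI, had 50%, 52.9% and 50% in sgPOU2AF1 libraries and 66.7% in all 3 sgEGFP libraries of MM.1S. These were 2 of 7 genes for sgPOU2AF1 in MM.1S (28.6%, against 1.05% of all member genes). MAF alone was called for IL-6 in MM.1S and for sgHNRNPL (14.3%, against 1.87% and 3.61%). Among 12 DNA repair and checkpoint genes, RAD52 was called with sgELL2 in MM.1S (8.33%, against 0.777%), at 15.8% ± 2.16 against 5.14% ± 4.81 in sgEGFP cells. MDM4 was called with IL-6 in INA-6 (8.33%, against 1.09%). Of 8 cell cycle genes CDC25C, a phosphatase that starts mitosis, was called for sgSRSF1 (12.5%, against 9.76% of all member genes), at 0%, 1.47% and 1.60% in sgSRSF1 libraries against 10.98%, 12.1% and 12.2% in sgEGFP libraries. Of 11 chromatin regulators, BRD1, BRD8, BRD9 and KMT2D were called in at least 1 comparison. In single comparisons these were 2 of 11 genes (18.2%) for sgSRSF1, sgHNRNPL and IL-6 and sgPOU2AF1 in INA-6, against 9.76%, 3.61%, 1.09% and 1.36% of all member genes, and 0 of 9 in the direct comparison. BRD8 had 76.1% ± 3.98 in sgSRSF1, 65.7% ± 1.87 in sgHNRNPL and 54.4% ± 3.89 in sgEGFP cells, and KMT2D had a further coding extension of 21 nt. That extension was higher with sgPOU2AF1 in INA-6, at 97.3% ± 4.62 against 83.3% ± 3.33 in sgEGFP cells, and lower with sgSRSF1 in MM.1S, at 87.3% ± 4.18 against 97.8% ± 3.85 in sgEGFP cells. BRD9 had 50% and 63.6% in 2 libraries with IL-6 and 15.4%, 37.5% and 6.25% without IL-6 in INA-6, with no value in the third IL-6 library. Of 8 genes of endoplasmic reticulum quality control, UGGT2 and EDEM2 were called for sgSRSF1 (25%, against 9.76%) and UGGT2 for sgHNRNPL (12.5%, against 3.61%), EDEM2 with 3.27% ± 3.72 in sgSRSF1 and 20.9% ± 6.63 in sgEGFP cells. Of the 6 apoptosis genes CASP8 was called, for sgSRSF1 and for sgHNRNPL (16.7%, against 9.76% and 3.61%). With so few genes in a list, these shares rest on 1 or 2 genes. Among 9 genes of IL-6, JAK-STAT, MAP kinase and NF-kB signalling and 6 of ribosomal proteins and translation factors, 0 members were called in any comparison. Of all member genes, 0.777% to 9.76% were called by comparison, so few calls could arise in lists of this size.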

How the data were processed

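Alternative splicing was compared in 8 comparisons of 3 libraries per group. The authors aligned to GRCh38 with STAR 2.7.10b and handled alignments with SAMtools 1.19.2, per the submitters' processing notes. No source used here names the splicing caller. Its deposited values are PSI in percent per library, and a p-value headed as adjusted. A two-sided unequal-variance test recomputed from the deposited PSI gave that p-value to within 1% in 100% of events, so it was taken as unadjusted. The listed differences matched the deposited means in all but 5 events. In the INA-6 sgPOU2AF1 and sgELL2 tables some headers say MM.1S. Their sgEGFP means had correlations of 0.995 and 0.997 to IL-6-treated INA-6 cells, against 0.953 and 0.961 to IL-6-treated MM.1S cells, so they were taken as INA-6.

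Events were called at p under 0.05 and 10 points. PSI, bounded at 1 and 99%, was logit-transformed for limma 3.58.1 (R 4.3.3), which was tested on simulated data. In the 6 tables of selected events its prior came from the complete tables. Positions were matched to GENCODE release 29 transcripts on GRCh38. For plus strand targets 1150 members carry 1 base more than the segment between the sites, and segment lengths leave it out. Named events are the 6 largest rises and falls per comparison with all libraries (10 for sgSRSF1), those called in 3 or more comparisons or in both lines, and those in genes of the lists. Members, lists and tests were chosen with earlier results of these data known. Of the differences between the lines, 1 is counted but not reported here. Alternatives changed the p, the PSI and length filters, the counting unit, the scale and the libraries. Further software was matplotlib 3.10.9, pandas 2.3.3, scipy 1.17.1 and numpy 2.4.6 under Python 3.11.15.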

Additional observations from a re-analysis of the deposited data

Results flagged for a closer look

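At the members below the change differed between the cell lines by limma's interaction term on logit PSI, adjusted over the events listed in both tables. Background shares were 34.8% of such events for IL-6, 23.4% for sgPOU2AF1 and 19.1% for sgELL2; 9 of 22, 4 of 13 and 2 of 4 members passed. Both tables list only events with a p-value under 0.05, so events with opposite directions were selected for such a difference, and these values are a description. Values below are the difference in MM.1S minus that in INA-6, in points.

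For IL-6 the largest was BRD1, at 27.11, followed by CENPL, a kinetochore protein, at 11.34 and ZDHHC7, a palmitoyltransferase, at 8.83. The differences with IL-6 were 3.27 points in MM.1S and -8.07 points in INA-6 for CENPL, and 5.53 and -3.30 points for ZDHHC7. The difference was negative for TRPT1 (-18.68), FASTK (-16.39), TEDC2 (-16.25), GMIP (-15.65) and ADA (-8.44). FASTK, a regulator of mitochondrial RNA, had 73.3%, 70.4% and 71.0% with IL-6 and 87.0%, 84.8% and 85.4% without IL-6 in MM.1S, and 95.1%, 94.2% and 94.7% with IL-6 and 91.7%, 92.8% and 92.9% without IL-6 in INA-6. TRPT1, TEDC2, GMIP and ADA were lower with IL-6 in MM.1S and higher in INA-6.

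For sgPOU2AF1 the differences were 20.24 at TMEM198B, 13.72 at TSTD1, 7.36 at ADA, the adenosine deaminase, and 4.65 at TMEM141, each higher in MM.1S and lower in INA-6. For sgELL2 they were 39.07 at PCED1A, where MM.1S sgELL2 cells had 60% and 64.3% in 2 libraries with a value, and 6.28 at VIRMA, a subunit of the m6A methyltransferase complex.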

How the results depend on the processing

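No paired analysis was possible because the value columns carry no replicate numbers. With p under 0.01 in place of 0.05 the members called in MM.1S were 16 (IL-6), 7 (sgPOU2AF1), 7 (sgELL2), 125 (sgSRSF1) and 24 (sgHNRNPL), and in INA-6 11 (IL-6), 20 (sgPOU2AF1) and 5 (sgELL2). Where members needed a value in the sgHNRNPL table they were 25, 27 and 17 for IL-6, sgPOU2AF1 and sgELL2 in INA-6. The moderated test without adjustment called 171 members for sgHNRNPL, and limma on the PSI scale called 5, adjusted, for IL-6 in MM.1S. The other settings with all libraries stayed within 1.5 times the count, 82 in all against these 13. At p under 0.01 the balance of higher and lower calls turned for IL-6 in INA-6, at 4 higher and 7 lower against 27 and 25 at 0.05, and for sgELL2 in INA-6, at 0 and 5 against 20 and 16, and became even for sgPOU2AF1 in INA-6, at 10 and 10 against 31 and 36. The cause was not tested.

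Without 1 library, members called were 30 to 41 for IL-6 in MM.1S, 16 to 24 for sgPOU2AF1 in MM.1S, 11 to 18 for sgELL2 in MM.1S, 19 to 31 for IL-6 in INA-6, 26 to 44 for sgPOU2AF1 in INA-6, 13 to 21 for sgELL2 in INA-6, 218 to 242 for sgSRSF1 and 78 to 94 for sgHNRNPL. In the 6 tables of selected events a left-out library can add a call only among the listed events. Adjusted calls were 68 to 92 for sgSRSF1, 0 to 3 for sgHNRNPL and 0 in the other comparisons, and 68 to 98 in sgSRSF1 against sgHNRNPL. Differences between the lines numbered 9 to 10 for IL-6, 2 to 4 for sgPOU2AF1 and 2 for sgELL2. Of the named events, 3 of 23, 1 of 18, 0 of 13, 0 of 15, 0 of 19 and 0 of 16 kept the call without any 1 library in IL-6, sgPOU2AF1 and sgELL2 in MM.1S and IL-6, sgPOU2AF1 and sgELL2 in INA-6, 7 of 44 for sgSRSF1 and 1 of 25 for sgHNRNPL.

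As an alternative chosen after seeing the data, events with identical values in a gene were counted once. This left 51, 32 and 23 members called for IL-6, sgPOU2AF1 and sgELL2 in MM.1S, 47, 57 and 31 in INA-6, 265 for sgSRSF1, 93 for sgHNRNPL and 165 in the direct comparison. Depth is unknown, so no difference can be called absent.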

Other observations

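Alternative sites outside the members had levels of their own. Tandem 3' splice sites within 12 nt, at the same limit of mean PSI, used the upstream site at a median of 74.5% in sgSRSF1 and 74.7% in sgEGFP cells (1149 events), and of 75.9% in sgHNRNPL and 75.3% in sgEGFP cells (1186 events). These medians stood near those of exon extensions beyond 12 nt. Alternative 5' splice sites had medians of 18.3% in sgSRSF1 and 19.3% in sgEGFP cells (3354 events), near those of the members as a whole, 18.8% in sgSRSF1 and 19.1% in sgEGFP cells. No test was made of these levels.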
